A study of Mus musculus with 13 samples.

Results

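Acta2, Tagln, Myl9, Tpm2, Rgs5 and S1pr3 are 6 genes commonly used to mark smooth muscle cells and pericytes, the contractile cells that wrap blood vessels. They were followed here in cultured cells of the oligodendrocyte lineage. The 6 are rows of a count table of 13549 genes, and they were picked because of their measured values in differentiating cultures. Their levels in those cultures are therefore given as a description, with no test, and only the comparison within undifferentiated cells is tested.

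RNA was sequenced from oligodendrocyte precursor cells (OPCs) and from immature oligodendrocytes (iOLs), both taken from brains of C57BL/6 mice in which Eed was conditionally deleted (Eed cKO) or from control brains. Eed is a core subunit of Polycomb repressive complex 2, which methylates histone H3 at silenced genes. OPCs were kept proliferating with PDGF and NT-3, and iOLs were collected at differentiation day 2, after T3 (thyroid hormone) had been added and PDGF withdrawn. The control OPC group held 2 libraries, from mice at postnatal days 7 and 6. The Eed cKO OPC group held 3 libraries, 2 from day 7 and 1 from day 6. Control and Eed cKO iOLs had 2 libraries each, all from day 6. The genotype entry of the labels reads the same for controls and Eed cKO samples, so groups were taken from the sample titles. The Cre line and the deleted part of Eed are not given in the sources used here, nor is it stated if replicate libraries came from different mice or dishes. The p-values therefore measure only the spread between these samples.

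Library totals ran from 17417529 to 19680398 counts. Eed itself lay at 16.8 to 21.7 CPM (counts scaled to library size) in the 4 control libraries and at 11.8 to 14.6 CPM in the 5 Eed cKO libraries. The Eed difference was -0.62 ± 0.17 on the log2 scale (SE) in OPCs and -0.55 ± 0.18 in iOLs, with adjusted p = 0.0847 and 0.0973 in edgeR's quasi-likelihood test with Benjamini-Hochberg adjustment. Over the alternative fits the adjusted p for Eed ran from 0.0121 to 0.278 in OPCs, passing in 3 of 16, and from 0.0393 to 0.459 in iOLs, passing in 4 of 16. The deleted part is unknown, so reads from the rest of the gene check the labels only in part. The 2 OPC libraries of postnatal day 6 stood apart from the 3 of day 7 in astrocyte markers, whose summed level was 13766 to 17033 CPM at day 6 and 6076 to 7737 CPM at day 7. Summed OPC markers were 15952 to 19793 CPM in OPCs and 5993 to 10003 CPM in iOLs, and summed myelin markers were 2768 and 7529 CPM in control OPCs, 1443 to 3492 CPM in Eed cKO OPCs, 9673 to 9798 CPM in control iOLs and 2284 to 3311 CPM in Eed cKO iOLs. In Eed cKO cultures the myelin sums of iOLs and OPCs overlapped.

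In smooth muscle, actin filaments built from the Acta2 product slide along myosin II, and phosphorylation of the regulatory light chain, which Myl9 encodes, switches the motor on. Tropomyosins such as the Tpm2 product lie along the filament, and transgelin (Tagln) binds and bundles it. The S1pr3 product is a receptor for the blood lipid sphingosine 1-phosphate. The Rgs5 product ends G protein signalling by speeding GTP hydrolysis, and Rgs5 is a classical pericyte marker in brain. Contractile genes are textbook targets of serum response factor (SRF), which binds DNA at a motif called the CArG box.

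RefSeq promoters (build GRCm38.p6, the assembly also called mm10) were matched for 5 of the 6 genes. The 250 bases before the promoter start are shown for 4 of them. That start is not always the edge of the gene span given below. For S1pr3 and Rgs5 the window ends at the base before the span. For Acta2, Myl9 and Tpm2 the promoter start lies inside the span, so the window reaches into the gene. All marked Acta2 letters lie inside the span, and the marked Myl9 letters lie before it. Acta2, Myl9 and S1pr3 are the genes with the much higher levels in iOLs, and Rgs5 is shown as the one that was lower in control iOLs. Lines run 5′ to 3′ on the gene's strand. Capitals mark a CArG box, a CArG-like run (1 of its central bases is G or C) or CATTCC, the core motif of TEAD factors, each searched on both strands.
Acta2: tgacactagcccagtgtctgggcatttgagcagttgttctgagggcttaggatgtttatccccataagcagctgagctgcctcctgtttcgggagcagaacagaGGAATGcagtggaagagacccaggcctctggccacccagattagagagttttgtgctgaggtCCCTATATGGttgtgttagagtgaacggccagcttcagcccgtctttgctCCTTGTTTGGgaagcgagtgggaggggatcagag
Myl9: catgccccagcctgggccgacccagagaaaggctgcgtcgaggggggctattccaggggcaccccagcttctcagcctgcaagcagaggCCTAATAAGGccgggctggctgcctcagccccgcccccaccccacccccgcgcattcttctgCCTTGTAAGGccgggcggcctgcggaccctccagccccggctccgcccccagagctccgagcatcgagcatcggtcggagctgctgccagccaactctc
S1pr3: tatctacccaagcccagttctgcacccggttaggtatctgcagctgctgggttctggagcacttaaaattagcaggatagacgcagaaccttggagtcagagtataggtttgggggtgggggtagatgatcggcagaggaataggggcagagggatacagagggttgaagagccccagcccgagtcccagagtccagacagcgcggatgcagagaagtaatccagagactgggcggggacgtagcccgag
Rgs5: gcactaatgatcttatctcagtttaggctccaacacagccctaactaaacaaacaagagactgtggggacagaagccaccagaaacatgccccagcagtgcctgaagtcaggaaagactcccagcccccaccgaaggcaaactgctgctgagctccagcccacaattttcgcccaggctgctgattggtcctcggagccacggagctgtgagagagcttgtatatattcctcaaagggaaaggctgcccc
The Acta2 window (chr19:34255374-34255623, minus strand) held 2 CArG-like runs, from base -84 to -75 and from -34 to -25 counted from the promoter start, and CATTCC on the opposite strand. The Myl9 window (chr2:156775214-156775463, plus strand) held 1 CArG box, from -161 to -152, and 1 CArG-like run, from -99 to -90. The windows of S1pr3 (chr13:51408368-51408617, plus strand), Rgs5 (chr1:169655251-169655500, plus strand) and Tpm2 (chr4:43523555-43523804, minus strand) held none of these letters. Among 32851 RefSeq promoters, 1.47% hold a CArG box, 7.24% a CArG-like run and 12.6% the TEAD core. A match describes the letters only, and no binding was measured here.

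Acta2, which encodes smooth muscle α-actin (chromosome 19, 34240336 to 34255585), was nearly silent in OPCs and abundant in iOLs. Control OPCs held 1.11 and 0.368 CPM of Acta2, and Eed cKO OPCs held 1.09, 1.18 and 1.03 CPM. It was 197 and 262 CPM in control iOLs and 153 and 235 CPM in Eed cKO iOLs. Every iOL library lay far above every OPC library. The control and Eed cKO iOLs overlapped, with a log2 difference of Eed cKO against control of -0.25 ± 0.25 (SE). The log2 fold change from OPCs to iOLs was 8.30 ± 0.39 (SE) in controls and 7.45 ± 0.31 in Eed cKO cultures. Among the 13549 genes this change took place 1 from the highest in controls and place 2 in Eed cKO cultures. The control fold rests on few OPC counts, 26 reads over both libraries, and the ratio of 320 has an exact binomial 95% interval of 218 to 489 that covers counting error only. In bulk libraries like these, fewer cells of a type and less RNA per cell cannot be told apart.

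Tagln, whose product is also called SM22α (chromosome 9, 45929628 to 45936058), followed the same course. The Tagln level was 2.17 and 3.47 CPM in control OPCs and 1.68, 1.02 and 2.01 CPM in Eed cKO OPCs. In iOLs it was 131 and 179 CPM in controls and 80.9 and 161 CPM in Eed cKO. All iOL libraries lay far above all OPC libraries. The iOL groups overlapped, with a log2 difference of Eed cKO against control of -0.36 ± 0.32. The log2 fold change was 5.77 ± 0.42 in controls and 6.25 ± 0.37 in Eed cKO cultures. Tagln overlaps Pcsk7, a proprotein convertase gene that is also in the table, so its reads are uncertain where the 2 genes meet. Pcsk7 stayed between 44.6 and 59.3 CPM over the 9 libraries, with log2 changes of 0.03 and -0.27 from OPCs to iOLs.

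Myl9 (chromosome 2, 156775408 to 156781657) had the smallest fold of the 3 contractile genes that were higher in iOLs. Control OPCs held 6.21 and 8.05 CPM, and Eed cKO OPCs held 5.48, 5.39 and 8.52 CPM. Myl9 stood at 38.7 and 53.0 CPM in control iOLs and at 50.02 and 87.9 CPM in Eed cKO iOLs. Again no iOL library overlapped an OPC library. The 2 iOL groups overlapped, with a log2 difference of Eed cKO against control of 0.59 ± 0.30. The log2 fold change was 2.68 ± 0.33 in controls and 3.41 ± 0.29 in Eed cKO cultures.

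Tpm2, the β-tropomyosin gene (chromosome 4, 43513726 to 43523583), did not follow. The Tpm2 level was 5.62 and 5.001 CPM in control OPCs, 7.65, 8.24 and 10.7 CPM in Eed cKO OPCs, 4.49 and 8.94 CPM in control iOLs, and 6.70 and 8.57 CPM in Eed cKO iOLs. The iOL libraries fell among the OPC libraries in both genotypes. Its log2 changes were 0.34 ± 0.33 in controls and -0.22 ± 0.29 in Eed cKO cultures, and without control iOL replicate 2 the first was -0.24. Tpm2 overlaps Car9, which is not in the table.

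S1pr3 (chromosome 13, 51408618 to 51422797) was low in OPCs and much higher in iOLs, with the highest values in Eed cKO iOLs. The S1pr3 level was 7.79 and 15.1 CPM in control OPCs and 5.26, 6.57 and 14.2 CPM in Eed cKO OPCs. It reached 133 and 229 CPM in control iOLs and 339 and 479 CPM in Eed cKO iOLs. Both Eed cKO iOL libraries exceeded both control iOL libraries. The log2 fold change from OPCs to iOLs was 3.98 ± 0.50 in controls and 5.56 ± 0.45 in Eed cKO cultures, and the log2 difference of Eed cKO against control iOLs was 1.18 ± 0.44. An overlapping long noncoding gene, Gm32834, is counted in the table as well, at 0.687 to 4.98 CPM in every library, and its log2 changes from OPCs to iOLs were -1.96 and -1.66.

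Rgs5 (chromosome 1, 169655501 to 169695813) differed between the stages in opposite directions in the 2 genotypes. The Rgs5 level was 2.34 and 2.47 CPM in control OPCs and 2.77, 3.18 and 4.28 CPM in Eed cKO OPCs. It was 1.36 and 0.944 CPM in control iOLs but 5.59 and 5.23 CPM in Eed cKO iOLs. No 2 of the 4 groups overlapped: control iOLs were lowest, then control OPCs, then Eed cKO OPCs, and Eed cKO iOLs were highest. Its log2 change from OPCs to iOLs was -1.06 ± 0.32 in controls and 0.66 ± 0.25 in Eed cKO cultures, and the log2 difference of Eed cKO against control iOLs was 2.22 ± 0.31. These are small counts, 17 to 105 reads a library.

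**Figure D1:**
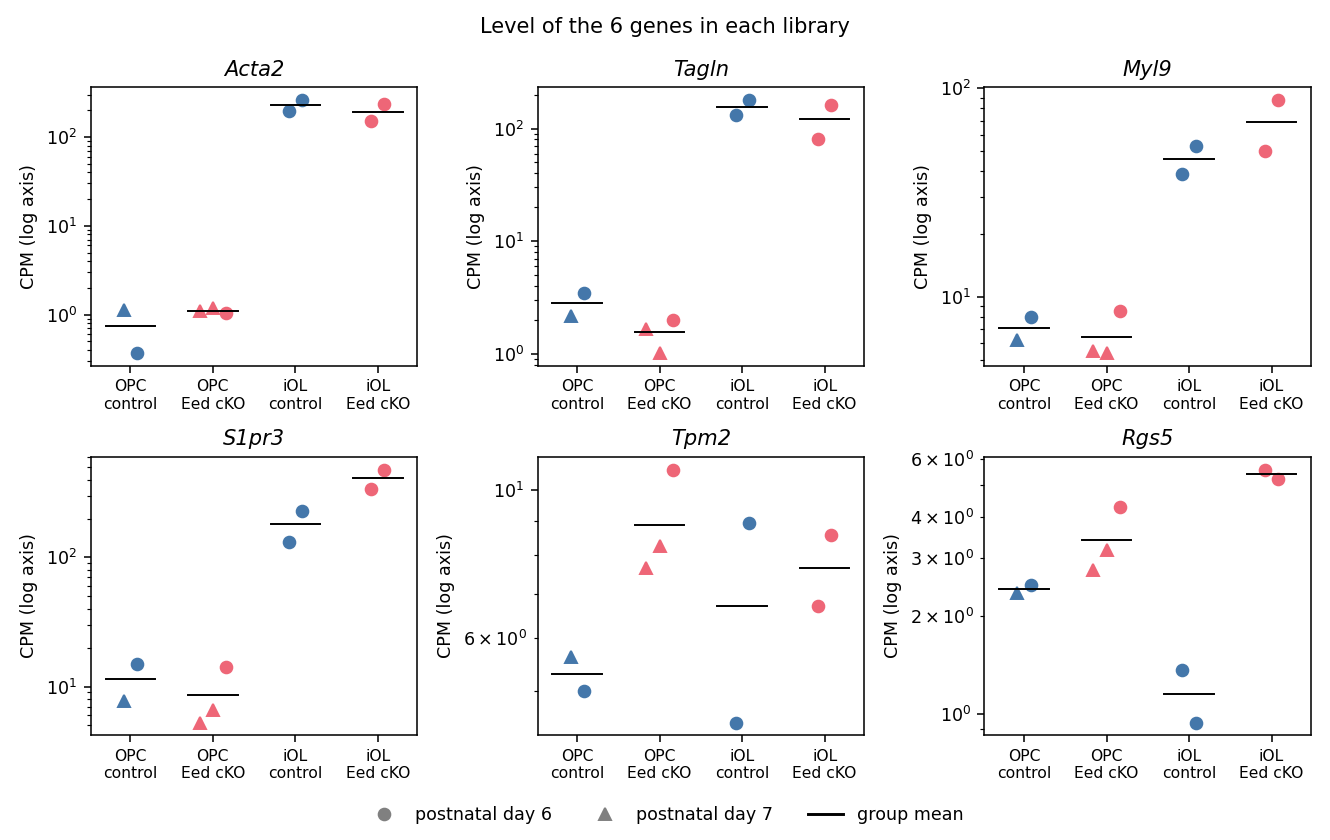
Level of each of the 6 genes in every library in CPM on a log axis. Blue points are control and red points Eed cKO libraries, circles postnatal day 6 and triangles day 7, and black lines are group means. Acta2, Tagln, Myl9 and S1pr3 separate iOLs from OPCs, Tpm2 does not, and Rgs5 is lowest in control iOLs (0.944 and 1.36 CPM) and highest in Eed cKO iOLs (5.23 and 5.59 CPM).

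Set side by side, 4 of the 6 genes had log2 fold changes of 1 or more from OPCs to iOLs in controls, where 8.46% of all genes did, and the same count held in Eed cKO cultures, where 7.31% did. In the controls the iOL and OPC groups did not overlap, with iOLs higher, for the same 4 genes, against 34.3% of all genes, and Rgs5 was lower without overlap, as were 37.6% of genes. In the Eed cKO cultures 5 genes were higher in iOLs without overlap, against 34.3% of all genes. Between the iOL genotypes Rgs5 and S1pr3 were higher in Eed cKO without overlap, as were 33.6% of genes, so this count alone does not set them apart. A test of whether the genotype effect differs between iOLs and OPCs, which 1.83% of all genes passed in edgeR, was not applied to the 6 genes. Because they were picked on these values, nothing further is read from the counts.

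**Figure D2:**
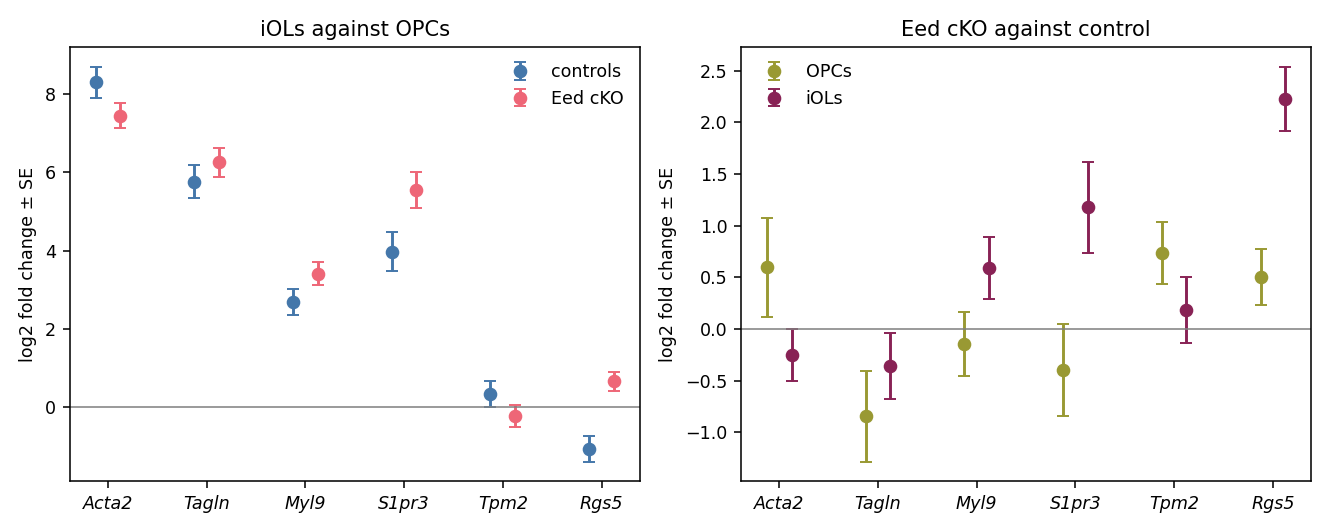
Log2 fold change with its standard error for each gene, from OPCs to iOLs in controls (blue) and Eed cKO cultures (red) on the left, and from control to Eed cKO in OPCs (olive) and iOLs (purple) on the right. Acta2 spans the widest change from OPCs to iOLs (8.30 and 7.45), and Rgs5 in iOLs has the widest genotype difference (2.22).

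The comparison of Eed cKO with control OPCs asks whether loss of the Polycomb subunit moves these genes before differentiation. None of the 6 genes passed adjusted p under 0.05 in edgeR, where 3.25% of all genes did. With no adjustment 1 gene, Tpm2, had a p under 0.05, as did 25.7% of all genes, and DESeq2 called 0 of the 6 and 7.42% of all genes. The Tpm2 difference was 0.74 ± 0.30 on the log2 scale with adjusted p = 0.168, and all 3 Eed cKO OPC libraries lay above both controls. The Rgs5 difference was 0.50 ± 0.27 with adjusted p = 0.264 in edgeR, also without overlap. Tagln was lower without overlap, at -0.85 ± 0.44 and adjusted p = 0.246 in edgeR. Without overlap between the OPC genotypes, 16.9% of the whole table lay higher and 17.4% lower. Acta2 (0.60 ± 0.48, adjusted p = 0.443 in edgeR), Myl9 (-0.14 ± 0.31, adjusted p = 0.788) and S1pr3 (-0.40 ± 0.45, adjusted p = 0.586) overlapped between the genotypes.

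Postnatal day moved with some of these values. In OPCs of either genotype S1pr3 lay at 14.2 to 15.1 CPM at day 6 and at 5.26 to 7.79 CPM at day 7, and Myl9 at 8.05 to 8.52 CPM against 5.39 to 6.21 CPM. The days did not overlap for either gene, and the day 6 libraries are the same ones with the higher astrocyte marker sum. The part of astrocyte RNA or of day in these levels was not tested. Within day 6, with 1 library on each OPC side, the log2 difference of Eed cKO against control was -0.08 for S1pr3 and 0.08 for Myl9, and within day 7 it was -0.40 and -0.19. For Acta2 it was 1.26 at day 6 and 0.02 at day 7, and for Tpm2 1.09 and 0.49. Against the OPCs of day 6 alone, the iOLs were higher by 8.90 (controls) and 7.37 (Eed cKO) on the log2 scale for Acta2, and by 3.52 and 4.82 for S1pr3. For Rgs5 the change against day 6 OPCs was -1.05 in controls and 0.33 in Eed cKO cultures, where the fit over both days gave 0.66.

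Across the 9 libraries the log2 levels of Acta2, Tagln, Myl9 and S1pr3 ran together, with Pearson r from 0.948 (Acta2 and S1pr3) to 0.994 (Myl9 and S1pr3). These 4 genes share the same iOL and OPC groups, so r mainly carries the difference between them. Tpm2 and Rgs5 had r between -0.204 and 0.321 with the other genes and with each other. Within control iOLs replicate 2 was above replicate 1 for Acta2, Tagln, Myl9, Tpm2 and S1pr3, and within Eed cKO iOLs replicate 2 was again above replicate 1 for these 5 genes. Rgs5 did the reverse in both groups. In control iOLs the fibroblast collagen gene Col1a1 was also higher in replicate 2, at 31.6 against 6.64 CPM, while in Eed cKO iOLs it was 8.35 against 6.39 CPM.

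The genes whose pattern was most like the mean profile of Acta2, Tagln, Myl9 and Tpm2, among 13201 genes with a mean of at least 1 CPM, were Tmem39a (Pearson r = 0.991 over 9 libraries), Ephx1, Usb1, Zfp110, Nck1, Kctd11, Pdlim7 and Cavin1 (r = 0.973), out of 60 genes with r of 0.95 or more. That mean profile includes Tpm2, which had r of only -0.0943 to 0.0329 with Acta2, Tagln and Myl9. It is therefore not the pattern of Acta2, Tagln and Myl9 alone. Pearson r also does not measure the size of a change. The mean level of Tmem39a went from 18.3 CPM in control OPCs and 20.3 CPM in Eed cKO OPCs to 24.5 and 26.3 CPM in the matching iOLs. Cavin1 went from 4.04 CPM in control OPCs and 8.62 CPM in Eed cKO OPCs to 29.1 and 36.5 CPM in the matching iOLs. Pdlim7 encodes an actin-associated PDZ and LIM protein and Cavin1 a coat protein of caveolae. For S1pr3 the nearest genes were Arid5a (r = 0.993), Glipr2, Layn and Adamtsl4, but 281 genes reached 0.95, so these 4 are not particular to it. For Rgs5 they were Crabp1 (r = 0.973), Cdh22, Slit2 and Nrp2, and 2 genes reached 0.95. Nrp2, a semaphorin and VEGF co-receptor gene, had mean levels of 51.3 CPM in control OPCs, 76.2 in Eed cKO OPCs, 36.1 in control iOLs and 97.9 CPM in Eed cKO iOLs.

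Other genes of the smooth muscle contractile apparatus were split. Of 22 such genes 15 are in the table, and from OPCs to iOLs 6 rose and 4 fell in controls, and again 6 rose and 4 fell in Eed cKO cultures (edgeR, adjusted p under 0.05, which 21.0% and 25.3% of all genes passed upward and downward in controls and 18.5% and 21.8% in Eed cKO cultures). Their median log2 change was 0.31 in controls and -0.11 in Eed cKO cultures, against -0.06 and -0.00463 over all genes. Synpo2, a Z-line and stress fibre protein gene, rose by 3.53 ± 0.54 and 3.79 ± 0.47 on the log2 scale. Mylk, the kinase that phosphorylates the light chain encoded by Myl9, rose by 1.64 ± 0.30 and 2.82 ± 0.26. Tpm1, a paralog of Tpm2, fell by 1.22 ± 0.21 and 1.52 ± 0.20. Adjusted p in edgeR was 0.00184 or less for each of these values. The paralogs Tpm3 and Tpm4 went the other way: Tpm3 rose by 0.53 ± 0.10 and 0.54 ± 0.09 (adjusted p = 0.00264 and 0.00154 in edgeR), and Tpm4 by 0.43 ± 0.14 and 0.68 ± 0.12 (0.028 and 0.00202). The Tpm4 call in controls ended when only the control groups were fitted (0.0551) and without control OPC replicate 2 (0.0767), Eed cKO OPC replicate 2 (0.0503) or control iOL replicate 1 (0.108) or 2 (0.113). Of 23 listed paralogs of the 6 genes 19 are in the table, and 8 rose and 5 fell in controls and 11 rose and 5 fell in Eed cKO cultures. The 8 became 5 when only the control groups were fitted or without control iOL replicate 1 or 2.

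Myh11, the smooth muscle myosin heavy chain that marks mature smooth muscle, stayed at 0.284 to 1.25 CPM over the 9 libraries. Its log2 changes of 0.56 ± 0.60 in controls and -0.85 ± 0.50 in Eed cKO cultures did not pass (adjusted p = 0.479 and 0.209 in edgeR), and the first was -0.54 without control iOL replicate 2. Cnn1, Des, Lmod1 and Actg2, which also mark smooth muscle, are not in the table and were not analysed here. In Eed cKO against control iOLs 2 of the 15 genes rose, as did 7.08% of all genes, and none fell. Mylk was 15.1 and 18.2 CPM in Eed cKO iOLs against 7.04 and 6.83 CPM in control iOLs, a log2 difference of 1.26 ± 0.27 with adjusted p = 0.018 in edgeR. The other was Synm, an intermediate filament gene, at 0.87 ± 0.23 with adjusted p = 0.0412. Leaving out any 1 of the 4 iOL libraries ended both calls, with adjusted p from 0.077 to 0.137 for Mylk and from 0.0575 to 0.284 for Synm, and Synm was also lost without Eed cKO OPC replicate 1 (0.0617). In Eed cKO against control OPCs edgeR called none of the 15, DESeq2 called 3 of them higher, and before adjustment 5 were higher and 0 lower at p under 0.05. Without control OPC replicate 2 edgeR called 4 of them higher.

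All 28 listed genes of the general actin cytoskeleton and nonmuscle myosin II are in the table. From OPCs to iOLs 15 rose and 1 fell in controls, where 21.0% of all genes rose and 25.3% fell, and 13 rose and 1 fell in Eed cKO cultures (18.5% and 21.8%), with median log2 changes of 0.57 and 0.34. Cnn2, the nonmuscle calponin gene, went from 4.57 and 3.0005 CPM in control OPCs to 85.1 and 117 CPM in control iOLs, a log2 change of 4.74 ± 0.26 (adjusted p = 4.01e-06 in edgeR). In Eed cKO cultures Cnn2 rose by 3.26 ± 0.20 (adjusted p = 6.23e-06), to 85.9 and 113 CPM. The filamin genes Flna and Flnc rose by 2.07 ± 0.21 and 2.49 ± 0.46 in controls and by 1.78 ± 0.18 and 2.21 ± 0.39 in Eed cKO cultures. Myh9, a nonmuscle myosin heavy chain gene, rose by 1.65 ± 0.14 and 1.06 ± 0.12, and Actg1, which encodes cytoplasmic γ-actin, by 1.21 ± 0.15 and 0.81 ± 0.13. The number that rose in controls was 9 when control iOL replicate 2 was left out or when only those 2 groups were fitted, and in Eed cKO cultures it was 7 without Eed cKO iOL replicate 2 and 8 without Eed cKO iOL replicate 1 or Eed cKO OPC replicate 1 or 2.

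In Eed cKO against control OPCs 3 of these 28 genes rose and 0 fell, against 2.94% and 0.303% of all genes. Cnn2 was higher by 1.46 ± 0.24 on the log2 scale (adjusted p = 0.0125 in edgeR), with 9.39 to 10.9 CPM in Eed cKO OPCs. Myh9 was higher by 0.60 ± 0.13 (adjusted p = 0.0386 in edgeR). The count of 3 was 9 without control OPC replicate 2, 5 with a replicate block or without Eed cKO OPC replicate 3, and 0 without Eed cKO OPC replicate 1. It was 1 when only the OPC groups were fitted and without control OPC replicate 1, Eed cKO OPC replicate 2 or either Eed cKO iOL library. The Cnn2 call reached adjusted p = 0.0501 without Eed cKO OPC replicate 1. The Myh9 call ended when only the OPC groups were fitted (adjusted p = 0.121), without control OPC replicate 1 (0.157), without Eed cKO OPC replicate 1 (0.162) or 2 (0.125), and without either Eed cKO iOL library (0.0829 and 0.0826).

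Srf, the factor whose motif was searched above, fell, and its listed targets were mixed. Srf went from 105 to 129 CPM in control OPCs to 47.8 and 50.5 CPM in control iOLs, a log2 fall of -1.25 ± 0.16, and fell by 1.32 ± 0.15 in Eed cKO cultures (adjusted p = 0.000237 and 0.00014 in edgeR). Of its cofactors, Mkl2 rose by 0.97 ± 0.18 and 0.75 ± 0.16 (adjusted p = 0.00187 and 0.00434), while Mkl1 had log2 changes of 0.15 and 0.14 with adjusted p = 0.323 and 0.34. Of 21 listed factors and targets 14 are in the table, and 4 rose and 5 fell in controls while 4 rose and 6 fell in Eed cKO cultures, against 21.0% and 25.3% of all genes in controls and 18.5% and 21.8% in Eed cKO cultures. The immediate early genes Egr1 and Fos fell, with log2 changes of -4.27 ± 0.41 and -3.78 ± 0.38 in controls and -3.94 ± 0.39 and -2.59 ± 0.35 in Eed cKO cultures. Thbs1, a secreted matrix protein gene, rose by 2.94 ± 0.47 and 2.08 ± 0.39 (adjusted p = 0.000893 and 0.00258).

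**Figure D3:**
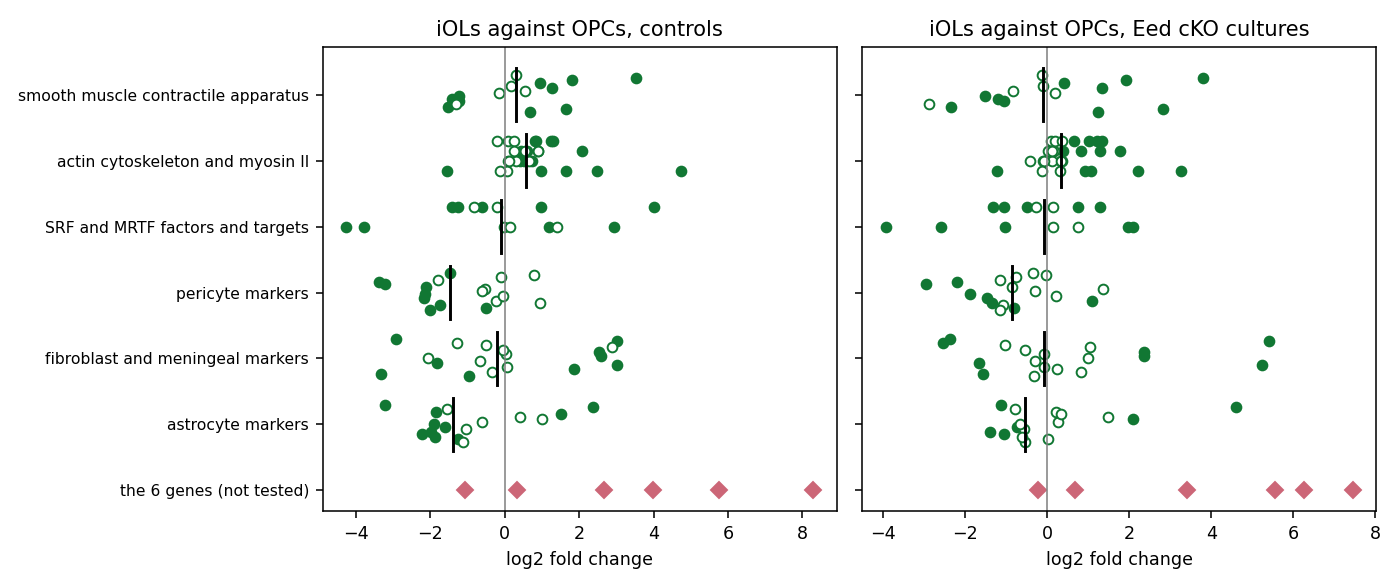
Log2 fold change from OPCs to iOLs for the genes of 6 lists, in controls (left) and Eed cKO cultures (right). Filled circles passed adjusted p under 0.05 in edgeR, open circles did not, black bars are list medians, and diamonds are the 6 genes, which are not tested. The pericyte list lies mostly below 0 (medians -1.47 and -0.87), and the actin cytoskeleton list mostly above it (0.57 and 0.34).

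Of 29 pericyte markers 17 are in the table, and in controls 0 rose and 9 fell from OPCs to iOLs, with 0 higher and 10 lower before adjustment (p under 0.05) and 0 higher in DESeq2. Of all genes 21.0% rose and 25.3% fell there. In Eed cKO cultures 1 rose and 6 fell, against 18.5% and 21.8%. The count that fell in controls was 5 when only the compared groups were fitted or without control iOL replicate 1 or 2, and 12 with postnatal day as a term. In Eed cKO cultures that term gave 11, and the 1 that rose was lost without Eed cKO OPC replicate 1 or 2 or any iOL library. Heyl, a Notch target gene, fell by 3.22 ± 0.35 and 2.97 ± 0.30 (adjusted p = 0.000103 and 8.36e-05 in edgeR), and Cd248, the endosialin gene, by 3.39 ± 0.37 and 2.20 ± 0.31 (adjusted p = 0.000108 and 0.000516).

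The receptor genes that define pericytes went the same way in controls but on weaker footing. Pdgfrb was 11.4 and 35.8 CPM in control OPCs and 3.12 and 7.77 CPM in control iOLs, a log2 change of -2.12 ± 0.72 with adjusted p = 0.0378 in edgeR. Notch3 changed by -2.02 ± 0.61 (adjusted p = 0.0226). Leaving out control OPC replicate 2 ended the calls for Pdgfrb (-1.06, adjusted p = 0.276) and Notch3 (-0.72, adjusted p = 0.254), and leaving out control iOL replicate 1 (adjusted p = 0.199 and 0.121) or 2 (0.0523 and 0.0771), or fitting only the control groups (0.0733 and 0.0689), ended them too. Abcc9 changed by -1.47 ± 0.49 (adjusted p = 0.0351), which DESeq2 did not call (0.052). That call also ended when only the control groups were fitted (0.121) and without control OPC replicate 1 (0.185), Eed cKO OPC replicate 2 (0.0509), control iOL replicate 2 (0.207) or Eed cKO iOL replicate 1 (0.0518) or 2 (0.0517). In Eed cKO cultures none of the 3 passed, with log2 changes of -0.87 for Pdgfrb, -1.17 for Notch3 and -0.36 for Abcc9 and adjusted p = 0.314, 0.124 and 0.516. With postnatal day as a term Pdgfrb (-1.71, adjusted p = 0.00819) and Notch3 (-2.09, adjusted p = 4.35e-05) did, and Notch3 also passed without control OPC replicate 1 (0.036) or 2 (0.0357). Kcnj8, Anpep, Higd1b and Des are not in the table and were not analysed here.

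In Eed cKO against control iOLs 4 of the 17 pericyte markers rose and 0 fell, against 7.08% and 3.51% of all genes. The 4 became 2 without control iOL replicate 2 or Eed cKO iOL replicate 1 and 7 with postnatal day as a term. Tbx18, a transcription factor gene of mural cells, was 3.03 and 3.44 CPM in Eed cKO iOLs against 0.17 and 0.167 CPM in control iOLs (log2 difference 4.21 ± 0.47, adjusted p = 0.00113 in edgeR). Foxc1, another transcription factor gene, rose by 2.46 ± 0.30 (adjusted p = 0.00165). Both also rose in Eed cKO OPCs, by 6.52 ± 0.49 and 3.28 ± 0.32 (adjusted p = 0.000153 and 0.000623), although control OPCs held only 3 Tbx18 reads. Cd248 rose by 1.51 ± 0.40 (adjusted p = 0.04). Without control iOL replicate 2 it stood at 0.93 (adjusted p = 0.19), and without Eed cKO iOL replicate 1 at 1.64 (adjusted p = 0.124). Cd248 was also lost when only the iOL groups were fitted (0.0534), with a replicate block (0.0595), and without Eed cKO iOL replicate 2 (0.196) or Eed cKO OPC replicate 1 (0.0721), 2 (0.0694) or 3 (0.0521).

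Markers of other cells also moved beside the 6 genes. The summed level of 18 fibroblast and meningeal markers was 310 to 499 CPM in OPCs, 384 and 554 CPM in control iOLs and 1148 and 1595 CPM in Eed cKO iOLs. In Eed cKO against control iOLs 7 of the 18 rose and 0 fell, against 7.08% and 3.51% of all genes. Among them were Fbln5 (1.97 ± 0.19, adjusted p = 0.000638 in edgeR), an elastic fibre gene, and Aldh1a2 (4.84 ± 0.57, adjusted p = 0.00135), a retinoic acid synthesis gene. The count was 4 without control iOL replicate 1 or Eed cKO iOL replicate 2, and 12 with postnatal day as a term or when only the iOL groups were fitted. Over all genes, calls higher in Eed cKO iOLs numbered 1770 with that term and 2147 with only the iOL groups, against 959 in the reported fit. From OPCs to iOLs the 18 were split. In controls 5 rose and 4 fell, against 21.0% and 25.3% of all genes, and in Eed cKO cultures 4 rose and 4 fell, against 18.5% and 21.8%. Median log2 changes were -0.20 and -0.09. In controls Fbln5 rose by 3.01 ± 0.20 and Fbln1 fell by 3.32 ± 0.27 (adjusted p = 8.23e-06 and 1.99e-05 in edgeR). The 4 that fell in controls became 2 when only the control groups were fitted and 8 with postnatal day as a term. The fibroblast collagen gene Col1a1 rose from OPCs to iOLs in controls (1.87 ± 0.61, adjusted p = 0.0321) but stood at 0.34 without control iOL replicate 2. That call also ended without control OPC replicate 1 (0.0578) or 2 (0.138), when only the control groups were fitted (0.12), with a replicate block (0.0695) and with postnatal day as a term (0.0514). Its log2 change in Eed cKO cultures was 0.23 (adjusted p = 0.77). Dcn lay at 1.27 and 1.38 CPM in Eed cKO iOLs against 0.114 and 0.222 CPM in control iOLs, a difference that did not pass (2.93 ± 0.83, adjusted p = 0.0542). Dcn did pass in DESeq2 (0.0292), when only the iOL groups were fitted (0.0062), with a replicate block (0.011) or postnatal day (0.00879), and without Eed cKO OPC replicate 1 (0.0492) or 3 (0.00578). Lum is not in the table. The part of fibroblast RNA in the levels of the 6 genes was not tested.

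Of 17 endothelial markers 6 are in the table, without Pecam1 or Cldn5, and their sum went from 16.8 to 24.1 CPM in OPCs to 154 to 192 CPM in iOLs. Most of that sum was Vwf, which rose by 3.20 ± 0.20 and 3.06 ± 0.18 on the log2 scale, and Kdr, which rose by 4.15 ± 0.25 and 4.25 ± 0.20 (adjusted p from 2.69e-06 to 6.55e-06 in edgeR). Of the 6, 3 rose and 0 fell in controls, against 21.0% and 25.3% of all genes. Ocln, the third that rose (1.54 ± 0.56, adjusted p = 0.0459 in edgeR), was not called by DESeq2 (0.0539). That call also ended when only the control groups were fitted (0.129). In Eed cKO cultures 2 rose and 1 fell, against 18.5% and 21.8%. Flt1 was the 1 that fell (-1.27 ± 0.29, adjusted p = 0.00746 in edgeR). Without Eed cKO iOL replicate 1 the Flt1 change stood at -1.02 and the call ended. In Eed cKO against control OPCs 3 of the 6 rose and 0 fell, against 2.94% and 0.303%. Flt1 rose there by 4.35 ± 0.40 (adjusted p = 0.000469 in edgeR). The 3 became 1 when only the OPC groups were fitted, where the calls for Ocln and Kdr ended (adjusted p = 0.0674 and 0.162). Both calls also ended without Eed cKO OPC replicate 1 (0.0835 and 0.1) or 2 (0.0652 and 0.0697). Of 16 astrocyte markers 2 rose and 8 fell in controls and 2 rose and 4 fell in Eed cKO cultures, against 21.0% and 25.3% of all genes in controls and 18.5% and 21.8% in Eed cKO cultures. The astrocyte filament gene Gfap rose by 2.38 ± 0.53 and 4.59 ± 0.50 (adjusted p = 0.00566 and 0.000115). Gfap stood at 3655 and 3778 CPM in control iOLs and 6115 and 7938 CPM in Eed cKO iOLs. The 8 became 5 without control iOL replicate 2 and 12 with postnatal day as a term. The 4 became 11 with that term, and 1 with a replicate block and without Eed cKO OPC replicate 3 or any iOL library. The 2 that rose in controls became 4 without control OPC replicate 2, and the 2 in Eed cKO cultures became 5 with a replicate block and 4 without Eed cKO OPC replicate 3. The part of these cells in the levels of the 6 genes was not tested.

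Of 17 other genes of sphingosine 1-phosphate signalling 13 are in the table, and in both genotypes 2 rose and 5 fell from OPCs to iOLs, with median log2 changes of -0.71 and -0.74. Of all genes 21.0% rose and 25.3% fell in controls, and 18.5% and 21.8% in Eed cKO cultures. The count that fell in Eed cKO cultures was 2 without Eed cKO iOL replicate 2 and 3 without any other iOL library or Eed cKO OPC replicate 1. The count that rose was 1 in both genotypes with a filter of at least 1 CPM in 4 libraries, and in controls also when only those groups were fitted and without control iOL replicate 1 or 2. The receptor gene S1pr2 fell by 0.95 ± 0.15 in controls and 0.95 ± 0.14 in Eed cKO cultures (adjusted p = 0.000931 and 0.000675 in edgeR), from 34.1 to 45.5 CPM in OPCs to 17.4 to 23.7 CPM in iOLs. S1pr1, the main receptor of endothelium and lymphocytes, was 108 and 269 CPM in control OPCs and 47.4 and 53.4 CPM in control iOLs (-1.90 ± 0.49, adjusted p = 0.0117). The S1pr1 call ended without control OPC replicate 2 (-1.10, adjusted p = 0.0825) and without control iOL replicate 1 (0.0734) or 2 (0.0564). Sgpp2, a phosphatase gene that degrades the lipid, rose by 1.71 ± 0.42 and 1.63 ± 0.33 (adjusted p = 0.00887 and 0.0037), and in controls the call ended without control iOL replicate 2 (adjusted p = 0.0755) or when only the control groups were fitted (0.0541).

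Between the iOL genotypes 1 of the 13 genes rose and 1 fell, against 7.08% and 3.51% of all genes. Spns2, the sphingosine 1-phosphate exporter gene, was 19.5 and 19.4 CPM in Eed cKO iOLs against 39.4 and 37.6 CPM in control iOLs, a fall of -0.98 ± 0.14 (adjusted p = 0.00289 in edgeR). Sphk1, a kinase gene that makes the lipid, was 3.67 and 5.55 CPM against 0.568 and 1.67 CPM, a rise of 2.04 ± 0.50 (adjusted p = 0.0308). The Sphk1 call ended without control iOL replicate 1 (adjusted p = 0.199), Eed cKO iOL replicate 1 (0.0793) or 2 (0.181), or Eed cKO OPC replicate 1 (0.0557). In OPCs edgeR and DESeq2 called none of the 13, of which 0 were higher and 3 lower at p under 0.05 before adjustment.

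Several other RGS genes rose in Eed cKO iOLs. Of 19 family members 15 are in the table, and 5 rose and 0 fell in Eed cKO against control iOLs, against 7.08% and 3.51% of all genes. Rgs8 was 17.0 and 10.8 CPM in Eed cKO iOLs against 2.95 and 2.83 CPM in control iOLs (2.27 ± 0.32, adjusted p = 0.00298 in edgeR). Rgs4, a neighbour of Rgs5 in the subfamily of small RGS proteins, was 34.1 and 41.5 CPM against 12.2 and 10.2 CPM (1.76 ± 0.19, adjusted p = 0.00111), and Rgs6 rose by 1.78 ± 0.23 (adjusted p = 0.00208). Rgs16 rose by 1.41 ± 0.29 (adjusted p = 0.0159), a call that ended without control iOL replicate 1 (adjusted p = 0.1) or 2 (0.112) or Eed cKO iOL replicate 1 (0.129). The count of 5 was 3 without control iOL replicate 1 or 2 or Eed cKO iOL replicate 1.

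In Eed cKO OPCs 2 of the 15 RGS genes rose and 0 fell, against 2.94% and 0.303% of all genes. The 2 became 4 without control OPC replicate 2 and 5 without Eed cKO OPC replicate 3. Rgs8 rose by 1.59 ± 0.31 (adjusted p = 0.0254 in edgeR) and Rgs6 by 1.16 ± 0.22 (adjusted p = 0.022). Leaving out Eed cKO OPC replicate 1 or 2 ended both calls, with adjusted p = 0.0747 and 0.0819 for Rgs8 and 0.0713 and 0.0651 for Rgs6, as did fitting only the OPC groups (0.0712 and 0.0653), and the Rgs6 call also ended without control OPC replicate 1 (0.122). From OPCs to iOLs 1 rose and 5 fell in controls, and 4 rose and 6 fell in Eed cKO cultures, against 21.0% and 25.3% of all genes in controls and 18.5% and 21.8% in Eed cKO cultures. The 5 became 3 without control iOL replicate 2 and 8 with postnatal day as a term, and the 4 became 2 without Eed cKO OPC replicate 1 or 2. Rgs4 was the 1 that rose in controls (0.58 ± 0.20, adjusted p = 0.039 in edgeR), and that call ended when only the control groups were fitted (0.0865) and in all but 1 of the 9 fits that left out a library (0.0522 to 0.213). In Eed cKO cultures Rgs4 rose by 1.86 ± 0.17 (adjusted p = 4.33e-05). Rgs7 fell by 1.24 ± 0.15 and 1.39 ± 0.14, and Rgs3 fell by 1.04 ± 0.17 and 0.87 ± 0.16.

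**Figure D4:**
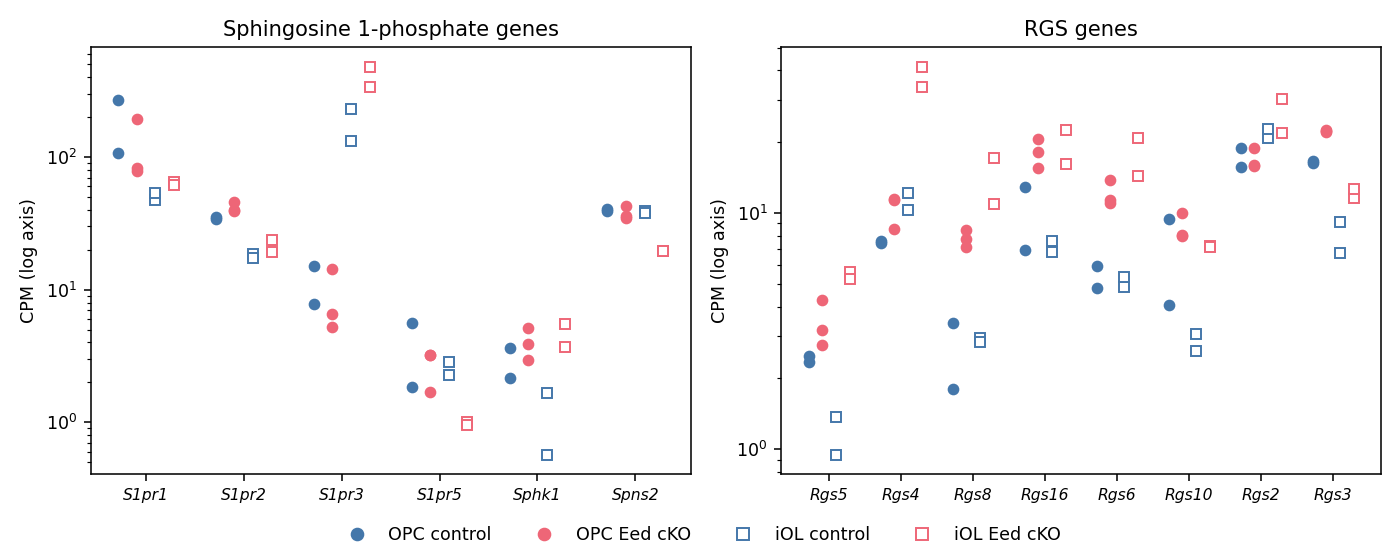
Level of sphingosine 1-phosphate genes (left) and RGS genes (right) in each library in CPM on a log axis, with filled circles for OPCs, open squares for iOLs, blue for control and red for Eed cKO. S1pr3 is the receptor with its highest values in iOLs (133 to 479 CPM), and Rgs5, Rgs4, Rgs8 and Rgs6 have both Eed cKO iOL libraries above both control iOL libraries.

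Genes of the TGF-β pathway, which induces Acta2 in fibroblasts and smooth muscle, were measured for all 18 listed. In controls 4 rose and 2 fell from OPCs to iOLs, and in Eed cKO cultures 3 rose and 3 fell, shares close to or below the 21.0% and 25.3% of all genes in controls and the 18.5% and 21.8% in Eed cKO cultures. Over the alternatives the 4 ran from 1, without control iOL replicate 2, to 7, without control OPC replicate 2, and the 2 became 4 without control OPC replicate 1 or with postnatal day as a term. Both counts of 3 in Eed cKO cultures became 5 without either control OPC library, the first was 6 when only those groups were fitted, and the second was 1 without Eed cKO iOL replicate 1. Ltbp2, a latent TGF-β binding protein gene, rose by 3.55 ± 0.65 and 2.70 ± 0.45 (adjusted p = 0.00199 and 0.00137 in edgeR), while its relative Ltbp1 fell by 1.97 ± 0.18 and 1.90 ± 0.17. Median log2 changes of the 18 were 0.04 and -0.05.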

How the data were processed

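The deposited table held raw counts per gene for 9 RNA libraries. Per the submitters' processing notes the tools were cutadapt 1.14, STAR 2.6.0 and featureCounts (Subread 1.6.2) with build mm10, and their settings are not given in the sources used here. Per the labels' protocols libraries were made by stranded TruSeq where RNA exceeded 100 ng and by SMARTer otherwise, with the choice per library not stated, so antisense and overlapping genes are uncertain. ChIP and input samples were not analysed here.

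A repeated header line inside the table (1) was left out, and no gene was removed by the filter (filterByExpr, minimum count 10). The smallest count in the table is 1, and every gene has 10 or more counts in at least 4 libraries. Genes of low count, and genes without reads in any 1 of the libraries, therefore appear to have been left out of the table already. Shares of all genes, list counts and the places of Acta2 cover only the genes kept. A marker missing from the table may be one of low count or one without reads in some library. CPM used TMM factors. Tests were edgeR 4.0.16 quasi-likelihood fits of 4 group means over all 9 libraries (R 4.3.3), adjusted by Benjamini-Hochberg over 13549 genes and called at 0.05. SE is the log2 change divided by the root of F. With 2 to 3 libraries a group, precision is set by the spread between libraries, and the code was tested on simulated data. The alternatives were other normalization, filters, groups in the fit, replicate block, postnatal day, DESeq2 1.42.0 and leaving out each library.

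The 6 genes and the lists were chosen with earlier results of these data known. The rule named all 6, up to 4 called genes of largest change per list and comparison, defining markers whatever their values, and 8 or 4 genes of most like pattern. Outside that rule S1pr2, Actg1, Tpm3, Tpm4 and some genes of the family plot were named after their values were seen. Some genes that the rule picks are not reported here.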

Additional observations from a re-analysis of the deposited data

Results flagged for a closer look

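Rgs5 was flagged because both control iOL libraries lay below both control OPC libraries while both Eed cKO iOL libraries lay above all 3 Eed cKO OPC libraries. Of all genes 37.6% were lower without overlap in control iOLs and 34.3% higher without overlap in Eed cKO iOLs. The share of genes with both was not counted, so this pattern does not set Rgs5 apart. The difference between the 2 Rgs5 changes was 1.72 on the log2 scale, and it was not tested, since Rgs5 was picked on these values. Against the OPCs of day 6 alone, with 1 OPC library in each genotype, the Rgs5 changes were -1.05 in controls and 0.33 in Eed cKO cultures.

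For 6 other listed genes the Eed cKO effect in iOLs differed from that in OPCs by edgeR's test of the difference itself, which 1.83% of all genes passed. They were 1 of 15 RGS genes, 1 of 13 sphingosine 1-phosphate genes and 2 of 18 fibroblast and meningeal markers. The others were 1 of 11 OPC markers and 1 of 15 neuron markers. The list of paralogs held Rgs4 again, and the remaining lists held no such gene. With only 1 or 2 such genes in a list, the 6 are not read as a result about the lists. For Rgs4 the difference was 1.28 ± 0.26 (SE, log2; adjusted p = 0.048), a call lost with RLE scaling (0.0503) and in 7 of the 9 fits that left out a library (0.0593 to 0.2), all but those without control OPC replicate 2 or Eed cKO OPC replicate 3. For the exporter gene Spns2 it was -0.90 ± 0.19 (adjusted p = 0.0489), lost on leaving out Eed cKO OPC replicate 1 or 2 or any iOL library (adjusted p from 0.105 to 0.205). For the matrix gene Fbln5 it was 2.21 ± 0.26 (adjusted p = 0.0109), at 0.0626 and 0.071 without control iOL replicate 1 and 2. For Fbln1 it was 1.75 ± 0.33 (adjusted p = 0.0385), lost on leaving out Eed cKO OPC replicate 1 or 2 or any iOL library (adjusted p from 0.0918 to 0.181). For C1ql1, on the list of OPC markers, it was 2.74 ± 0.30 (adjusted p = 0.0109), at 0.0576 and 0.071 without control iOL replicate 1 and 2. For Gad2, on the list of neuron markers, it was -1.55 ± 0.27 (adjusted p = 0.03), lost on leaving out Eed cKO OPC replicate 1 or 2 or any iOL library (adjusted p from 0.0918 to 0.153).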

How the results depend on the processing

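Calls over all genes moved with the fit and the libraries. Fitting only the compared groups gave 190 calls in OPCs and 3699 in iOLs for Eed cKO against control, where the reported counts are 440 and 1434, and postnatal day as a term gave 1382 and 2680. For the difference of differences that term gave 1202 calls against 248. DESeq2 gave 1006 calls in OPCs and 823 for the difference of differences. Leaving out 1 library gave 164 to 3935 calls in OPCs, 349 to 2236 in iOLs, 4057 to 7236 and 3080 to 6883 from OPCs to iOLs in controls and Eed cKO cultures, and 2 to 2156 for the difference of differences. The labels tie the replicate numbers to no shared animal or day, and deviations of same-numbered libraries correlated at -0.352 to 0.313 (0.239 in both iOL pairs), so the numbers were not taken as pairs. With a replicate block there were 1941 calls in OPCs and 1049 for the difference of differences, and S1pr3 in OPCs passed at -0.90 (adjusted p = 0.0257).

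Some log2 differences changed sign. For Eed cKO against control OPCs, leaving out 1 library gave -0.017 to 1.56 for Acta2, -0.40 to 0.060 for Myl9 and -0.95 to 0.16 for S1pr3, each with its changed sign without control OPC replicate 2, and Myl9 was 0.079 within postnatal day 6. In iOLs it gave -0.59 to 0.029 for Acta2 and -0.94 to 0.052 for Tagln, positive without Eed cKO iOL replicate 1, and -0.23 to 0.77 for Tpm2, negative without control iOL replicate 1 and just below 0 without Eed cKO iOL replicate 2. From OPCs to iOLs in controls it gave -0.24 to 0.75 for Tpm2 and -0.54 to 1.17 for Myh11, negative without control iOL replicate 2. The difference of differences ran from -0.97 to 0.025 for Tpm2, positive without control iOL replicate 2, and from -0.093 to 0.90 for Tagln, negative without Eed cKO iOL replicate 2. The cause was not tested. Over the alternatives run, Acta2 changed by 7.68 to 9.26 in controls, with both ends reached by leaving out 1 control OPC library, and Rgs5 in iOLs by 1.98 to 2.51. S1pr3 in Eed cKO cultures changed by 4.93, its lowest, with postnatal day as a term. Counts of called list genes under these settings were added after seeing the data. The shares of all genes given beside list counts are those of the reported fit. A list count under another setting is therefore not read against them.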
